A study of Mus musculus with 12 samples.

Results

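The replication-dependent histone genes encode the linker histone H1 and the core histones H2A, H2B, H3 and H4 that package newly copied DNA. They were taken as the genes whose symbol begins with H2ac, H2bc, H3c or H4c and a number, or is H1f1 to H1f5, and that had at least 10 reads summed over all libraries. Of 55471 genes in the count table, 69 had such a symbol and 53 reached 10 reads: 5 H1, 12 H2A, 15 H2B, 8 H3 and 13 H4 genes. Of the other 16, 5 had no read (H2bc1, H2ac1, H2ac18, H2ac24 and H3c14) and 11 had 1 to 8 reads.

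RNA came from crypts labelled as colonic, of C57BL/6J mice that were female and 8 weeks old by the study's general statement, 3 mice in each of 4 groups. CBPWTp53-floxed mice carried wild-type CBP, a histone acetyltransferase encoded by Crebbp, and loxP-flanked p53 alleles without Cre, so that p53 was present. CBPAAp53-floxed mice carried the same p53 alleles and a CBP in which a pair of serines phosphorylated by IKKα was replaced by alanines in every cell of the body. CBPWTp53ΔIEC and CBPAAp53ΔIEC mice carried in addition Villin-Cre, which deletes p53 in intestinal epithelial cells only, and no group had Cre without floxed p53. Crypts were released with EDTA, and the sequencing kit named in the labels selects polyadenylated RNA.

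Most replication-dependent histone mRNAs end in a conserved stem-loop in place of a poly(A) tail, which the stem-loop binding protein SLBP and the U7 snRNP recognize for cleavage. Their transcription and processing are coupled to DNA synthesis through cyclin E, CDK2 and the coactivator NPAT, and the mRNAs are degraded when replication stops. In the intestine DNA synthesis is a property of the dividing cells of the crypt. A library made by poly(A) selection is therefore meant to hold only the polyadenylated part of these RNAs, and a level given here is a level of captured RNA. How large the captured part is was not measured.

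The 150 bases before the RefSeq start are shown for 5 genes of the H1, H2A, H3 and H4 families. Each holds many of the reads or had a difference described below. Other such genes, H1f3 and H2bc6 among them, are not shown. H2bc4 and H2bc21 could not be shown, as no promoter was matched for them. Sequences are from RefSeq on GRCm38.p6, 5′ to 3′ in the direction of the gene, and capitals mark the octamer ATGCAAAT, the CCAAT box, the H1 box AAACACA of linker histone genes, and the TATA element spelled TATAAA. Each was searched on both strands, so that reverse complements are also in capitals.

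H1f2 (chr13:23738657-23738806, plus strand): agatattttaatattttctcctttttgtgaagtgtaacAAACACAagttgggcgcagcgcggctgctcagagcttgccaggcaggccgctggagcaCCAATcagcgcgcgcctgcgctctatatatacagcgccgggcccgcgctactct

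H1f4 (chr13:23622559-23622708, minus strand): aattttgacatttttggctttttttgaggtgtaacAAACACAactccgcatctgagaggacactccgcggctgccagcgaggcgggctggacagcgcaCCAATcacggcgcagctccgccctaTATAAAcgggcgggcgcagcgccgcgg

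H2ac6 (chr13:23683960-23684109, minus strand): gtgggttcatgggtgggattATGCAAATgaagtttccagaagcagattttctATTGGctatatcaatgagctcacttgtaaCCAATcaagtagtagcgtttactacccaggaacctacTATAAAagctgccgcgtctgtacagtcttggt

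H3c4 (chr13:23575613-23575762, plus strand): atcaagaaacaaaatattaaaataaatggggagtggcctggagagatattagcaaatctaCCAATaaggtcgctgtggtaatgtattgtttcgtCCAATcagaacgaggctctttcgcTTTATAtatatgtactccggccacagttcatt

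H4c9 (chr13:22041363-22041512, minus strand): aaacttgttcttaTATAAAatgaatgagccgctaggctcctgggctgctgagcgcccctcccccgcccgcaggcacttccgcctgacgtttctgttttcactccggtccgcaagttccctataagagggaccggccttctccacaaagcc

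The stretch of H2ac6 lies between that gene and H2bc4, which starts on the opposite strand 251 bases from it. Promoters of 300 bases (250 before the start and 50 after it) were matched for 46 members, 1 of them with 2 starts. H2bc4 and H2bc21, the H2B genes with most reads, were not matched and are missing from the H2B windows. CCAAT stood in 38 of these 47 windows (80.9%) against 37.4% of all 32851 promoters in the table, and in 3 of 12 H4 windows against all windows of the other families. The octamer, which the factor OCT1 binds in H2B promoters, stood in 5 of 11 H2A and 5 of 13 H2B windows (1.74% of all promoters) and in none of the others. Windows of divergent neighbours can overlap, as for H2ac8 with H2bc8 and H2ac12 with H2bc12, so that the same match is counted in both. The H1 box stood in 4 of 5 H1 windows (7.18% of all promoters) and TATAAA in 27 of 47 windows (13.6% of all promoters). These are matches of letters in a window, and no factor binding was measured.

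The stem-loop was searched after the coding sequence in GENCODE M21 transcripts, also on GRCm38, as a pattern of 16 letters. The pattern is the form shown in capitals for H1f2, with letters 3, 4 and 13 left free. It was found exactly in 27 members, and with 1 or 2 letters different in 12. It was not found in 4 (H2bc4, H2bc21, H1f1 and H2bc23). The H1f1 model has only 51 letters after the coding sequence, so a stem-loop further on would be missed. The other 10 could not be searched, 2 as annotated pseudogenes and 8 because the model ends within 16 letters of the coding sequence, and they are not counted as genes without a stem-loop. It is shown for 4 genes with 5 bases on each side and the matched letters in capitals.

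H1f2 (chr13:23739507-23739532, plus strand): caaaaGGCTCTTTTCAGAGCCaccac

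H2ac6 (chr13:23683472-23683497, minus strand): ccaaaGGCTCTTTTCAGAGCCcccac

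H3c4 (chr13:23576239-23576264, plus strand): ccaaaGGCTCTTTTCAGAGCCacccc

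H4c9 (chr13:22040961-22040986, minus strand): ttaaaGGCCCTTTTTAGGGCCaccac

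H4c9 differed from the pattern at 1 letter. In 21 members the annotated model went on for 100 letters or more past the stem-loop, by 840 letters in H1f2, 2010 in H2ac6, 752 in H3c4, 330 in H4c9, 1153 in H1f4 and 4884 in H1f3. In 18 members it ended within 100 letters.

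The libraries held 11177430 to 18029125 counted reads, and Trp53 had 437 to 934 reads in the 6 floxed libraries and 79 to 141 in the 6 p53ΔIEC libraries. Genes of the small intestine, such as Fabp6 and Apoa1, summed to 116 to 150 TPM (transcripts per 1000000 transcripts, a level per length) in 8 libraries. The same 10 genes summed to 3707 TPM in CBPWTp53ΔIEC replicate 1, 1647 TPM in CBPAAp53ΔIEC replicate 3, 850 TPM in CBPAAp53-floxed replicate 2 and 732 TPM in CBPAAp53ΔIEC replicate 1, against the label of colonic crypts. Paneth genes differed most between libraries: 8 of them summed to 358 to 20770 TPM, with 20770 TPM in CBPWTp53ΔIEC replicate 1, 12040 TPM in CBPAAp53-floxed replicate 3 and 9474 TPM in CBPAAp53ΔIEC replicate 3. The 4 defensin genes among them summed to 742 to 14767 TPM in the 4 libraries over 500 TPM of small intestine genes and to 0 to 26.4 TPM in the other 8, CBPAAp53-floxed replicate 3 included. Summed levels of 12 leukocyte genes (5.37 to 11.4 TPM), 10 stroma genes (2.02 to 6.73 TPM) and 5 endothelium genes (1.05 to 1.85 TPM) were low in all 12 libraries, while 14 epithelium genes summed to at least 21570 TPM in each.

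The 53 genes had 42132 reads in all, 0.0166% to 0.0368% of the reads of a library. A linker histone and an H2B gene held most of them. H1f2 (chr13:23738808-23740367) had 54.8% of the reads, H1f2 with H2bc4 (chr13:23684199-23692908) 85.1%, and both with H2bc21 (chr3:96221119-96223738) 90.8%. In TPM, H1f2 averaged 219, H2bc4 164 and H2bc21 13.6, and H4c9 was the next highest with 9.74. The other 50 genes had a median of 29.5 reads over the 12 libraries, and 39 of the 53 had under 100 reads. Reads were found in all 12 libraries for 19 members.

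By family, H1 genes held 51.4% to 61.5% of the members' reads in a library, H2B genes 33.4% to 42.3%, H2A genes 2.33% to 3.34%, H4 genes 1.59% to 3.83% and H3 genes 0.164% to 1.26%. Most of the members, 43 of 53, lie in the large cluster on chromosome 13, 6 on chromosome 3, 3 on chromosome 11 and 1 (H4c16) on chromosome 6. Neighbours within a cluster differed widely in level. H2bc4 averaged 164 TPM and the divergent H2ac6 1.64 TPM.

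Reads were read against the end of the gene model. The 21 members whose model went on past the stem-loop had a median of 80 reads over all libraries (12 to 23087) and 61.8% of all member reads. Most of that share was H1f2, which alone had 54.8% of all member reads. The 18 members whose model ended at the stem-loop had a median of 26.5 reads (12 to 146) and 1.68% of the reads. The 4 members searched without a match had 24 to 12763 reads and 36.1% of the reads, nearly all of them in H2bc4 and H2bc21. The 10 members that could not be searched had a median of 14 reads (10 to 40). The H2bc4 model has 2 exons, and the H2bc21 model 1 exon of 2620 letters. On the TPM scale, which divides by model length, the medians were 1.05 TPM for models that went on and 0.854 TPM for models that ended at the stem-loop.

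**Figure D1:**
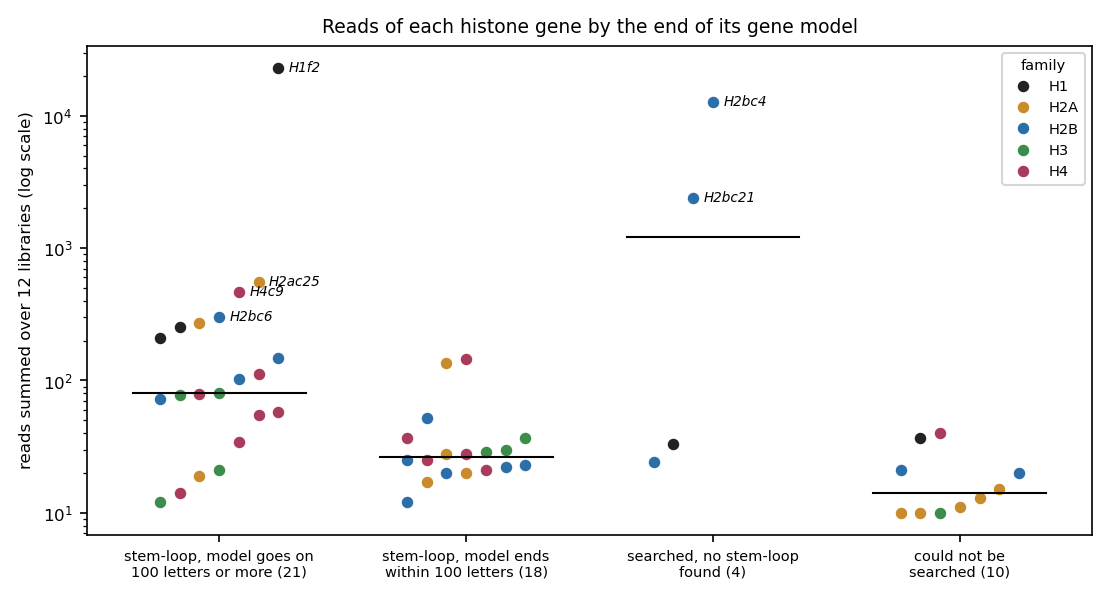
Reads summed over 12 libraries (log scale) for each of the 53 replication-dependent histone genes, by whether its gene model goes on past the stem-loop (21 genes), ends within 100 letters of it (18), was searched without a match (4) or could not be searched (10). Colours mark the histone family and lines the median of each class, at 80, 26.5, 1211 and 14 reads; H1f2, H2bc4 and H2bc21 stand apart from all others.

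RNAs that lack a poly(A) tail were set beside them, but how fully the selection removed such RNA was not tested. Of 18 such genes listed, Rn7sk, Rn7s1, Rn7s2, Rnu73b and Vaultrc5 were not in the count table. The others matched 14 entries, 2 of them for Rmrp, and summed to 2.15 to 5.73 reads per 1000000 in a library. The U7 RNA gene Rnu7 had no read. Some histone genes are near-identical copies, and some overlap another annotated gene. In 20 of 53 members over 50% of all 75-letter windows of the model also occurred in another gene, on either strand. The median over members was 36.6%. Overlapping genes, such as Trim17 for H2ac25, are included, so these values do not count copies alone. Of the 16 genes under 10 reads, 12 had over 50% of their windows in another gene, among them H2ac18 and H3c14 with 100%. How the counting treated reads that fit several genes is not given in the sources used here, so low counts of such genes, H2ac19 (100% of its windows) included, are uncertain.

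The first comparison asked how histone RNA differed between crypts without and with epithelial p53. Differences are log2 fold changes with standard errors (SE) from edgeR's quasi-likelihood test, and a gene was called at an adjusted p under 0.05 with a log2 fold change over 0.5 in size. Levels per library are reads per 1000000 after TMM scaling (CPM), and replicates are given in the order 1, 2 and 3. The filter on low counts kept 14610 genes and 17 of the 53 members, and a member that is high in 1 group passes it more easily. H1f3, H2bc8, H2bc9, H3c4, H4c4 and H3c15 had at most 0.713 CPM in a floxed library and passed only through p53ΔIEC libraries. They were therefore likely to be higher there, so counts, signs and medians of the 17 tested members are no separate support. This limit holds for all such values below. A fit without this filter is given further on. Averaged over both CBP genotypes, 6 mice against 6, 4 of the 17 tested members were called, all higher in p53ΔIEC crypts (H1f3, H1f4, H2ac6 and H4c9), beside 3.5% of all genes tested. At an unadjusted p under 0.05, 13 of 17 were higher and none lower, beside 13.2% of all genes tested that were higher. All members that passed the filter only through p53ΔIEC libraries are among these 13. The median log2 fold change was 1.07 over the 17 members and 0.0084 over all genes tested, and all 17 values were above 0, from 0.049 (H2ac19) to 2.56 (H1f3). In bulk RNA, more cells that express a gene and more RNA per cell cannot be told apart. With 1 library left out at a time, edgeR called 1 to 11 of the members, beside 0.705% to 7.18% of all genes tested, and H4c9 was the only member called in 9 of the 12 fits. DESeq2 on all libraries called 6, beside 5.27% of all genes. Among the 8 libraries with the lower numbers in their names, described further on, none was called.

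H1 genes encode the linker histones that bind between nucleosomes. H1f3 had 0.449, 0.354 and 0.222 CPM in CBPWTp53-floxed, 0.604, 0.281 and 0.713 CPM in CBPAAp53-floxed, 0.840, 4.69 and 3.01 CPM in CBPWTp53ΔIEC and 2.93, 3.04 and 0.345 CPM in CBPAAp53ΔIEC crypts. Its highest library held 74 reads and its lowest 4. The groups did not overlap in CBPWT mice, and in CBPAA mice they overlapped through p53ΔIEC replicate 3. The averaged log2 fold change was 2.56 (SE 0.55, edgeR adjusted p = 0.0227).

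H1f4 had 0.719, 0.767 and 0.333 CPM in CBPWTp53-floxed, 0.831, 0.563 and 0.178 CPM in CBPAAp53-floxed, 1.12, 2.28 and 3.55 CPM in CBPWTp53ΔIEC and 1.74, 1.88 and 0.483 CPM in CBPAAp53ΔIEC crypts. As for H1f3, only CBPAAp53ΔIEC replicate 3 lay within the range of the floxed crypts. Averaged, its log2 fold change was 1.65 (SE 0.42, edgeR adjusted p = 0.0408). H1f4 shares exons with H2bc6 on the same strand, so reads of the pair may be counted in either or in neither.

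H1f2 had the highest level of all members, with 118, 128 and 103 CPM in CBPWTp53-floxed, 109.9, 145 and 110 CPM in CBPAAp53-floxed, 148, 187 and 171 CPM in CBPWTp53ΔIEC and 138, 145 and 97.1 CPM in CBPAAp53ΔIEC crypts. The groups did not overlap in CBPWT mice and overlapped in CBPAA mice. The averaged log2 fold change of 0.30 (SE 0.12) did not pass the test (edgeR adjusted p = 0.157). The remaining H1 genes, H1f1 and H1f5, had 33 and 37 reads in all and were not tested.

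Among H2A genes, whose product pairs with H2B in the nucleosome, H2ac6 had 0.898, 1.53 and 0.833 CPM in CBPWTp53-floxed, 0.831, 0.788 and 0.713 CPM in CBPAAp53-floxed, 2.05, 3.11 and 3.01 CPM in CBPWTp53ΔIEC and 2.23, 2.25 and 0.622 CPM in CBPAAp53ΔIEC crypts. CBPAAp53ΔIEC replicate 3 was below every floxed library, and the other 5 p53ΔIEC libraries were above all of them. The log2 fold change averaged 1.21 (SE 0.30, edgeR adjusted p = 0.0377). H2ac25, which overlaps Trim17, had 2.28 to 4.85 CPM over all libraries with overlapping groups and a log2 fold change of 0.17 (SE 0.19, edgeR adjusted p = 0.656). H2ac19 had 0.555 to 1.35 CPM and a log2 fold change of 0.049 (SE 0.29, edgeR adjusted p = 0.940).

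Of the H2B genes, H2bc4 had 74.1, 63.7 and 53.8 CPM in CBPWTp53-floxed, 48.7, 71.0 and 55.3 CPM in CBPAAp53-floxed, 87.5, 103 and 100.3 CPM in CBPWTp53ΔIEC and 92.2, 90.4 and 49.9 CPM in CBPAAp53ΔIEC crypts. Every p53ΔIEC library but CBPAAp53ΔIEC replicate 3 lay above every floxed library. The averaged log2 fold change was 0.51 (SE 0.15, edgeR adjusted p = 0.0757). H2bc21 had 9.59 to 14.0 CPM in the floxed and 8.36 to 24.9 CPM in the p53ΔIEC libraries, with overlapping groups and a log2 fold change of 0.54 (SE 0.22, edgeR adjusted p = 0.177).

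H2bc6 had 0.898, 0.767 and 0.722 CPM in CBPWTp53-floxed, 0.529, 0.788 and 0.891 CPM in CBPAAp53-floxed, 0.560, 4.94 and 4.28 CPM in CBPWTp53ΔIEC and 2.65, 3.19 and 0.276 CPM in CBPAAp53ΔIEC crypts. In each p53ΔIEC group 1 library was below every floxed library of its CBP genotype and the others were above them all. Its averaged log2 fold change of 1.76 (SE 0.55) did not pass the test (edgeR adjusted p = 0.0909). For H2bc8, with 0.394 to 0.680 CPM in floxed and 0.691 to 1.67 CPM in p53ΔIEC crypts, the groups did not overlap, and the log2 fold change was 1.07 (SE 0.29, edgeR adjusted p = 0.0528).

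H3 and H4 form the central tetramer of the nucleosome. The H3 gene H3c4 had 4, 5 and 0 reads in CBPWTp53-floxed, 3, 1 and 3 in CBPAAp53-floxed, 6, 20 and 13 in CBPWTp53ΔIEC and 8, 15 and 2 in CBPAAp53ΔIEC libraries. The counts were few in every library and higher in 5 of 6 p53ΔIEC libraries than in any floxed library. H3c4 had an averaged log2 fold change of 1.95 (SE 0.59, edgeR adjusted p = 0.0773).

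The H4 gene H4c9 had 2.43, 1.83 and 1.67 CPM in CBPWTp53-floxed, 0.755, 0.957 and 0.713 CPM in CBPAAp53-floxed, 3.36, 6.28 and 4.22 CPM in CBPWTp53ΔIEC and 3.55, 5.43 and 1.52 CPM in CBPAAp53ΔIEC crypts. The groups overlapped in neither CBP genotype. The averaged log2 fold change was 1.67 (SE 0.29, edgeR adjusted p = 0.0117), the smallest adjusted p of the tested members. H4c8 had 0 to 1.53 CPM and H4c3 0.076 to 1.27 CPM, and their log2 fold changes of 0.42 (SE 0.47) and 0.35 (SE 0.40) did not pass (edgeR adjusted p = 0.650 and 0.649). H4c12, H2bc27 and H2bc11, among the 12 highest members in TPM, had 0 to 9, 3 to 11 and 1 to 11 reads in a library and were below the filter.

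**Figure D2:**
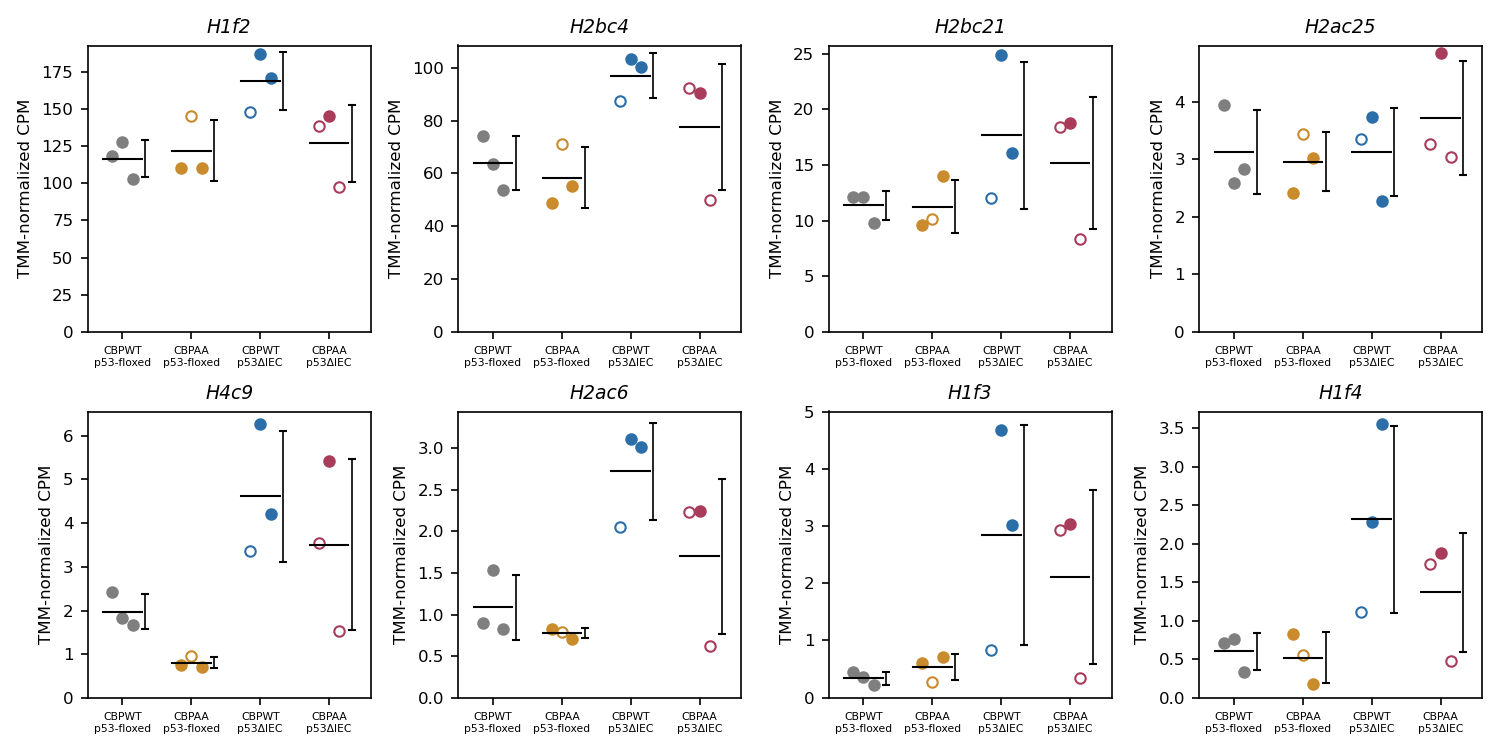
TMM-normalized CPM of 8 histone genes in each library, 3 mice a group, with the mean (line) and SD (bar beside it); open circles are the 4 libraries with over 500 TPM of small intestine genes. For H2ac6, H1f3 and H1f4 all p53ΔIEC libraries but CBPAAp53ΔIEC replicate 3 lie above every floxed library, for H4c9 the groups do not overlap within a CBP genotype, and for H2ac25 they overlap.

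Within CBPWT mice, none of the 17 tested members was called by edgeR, beside 3.15% of all genes tested, and 4 were called by DESeq2 (H1f2, H1f3, H1f4 and H4c9), beside 5.93% of all genes. At an unadjusted p under 0.05, 10 of 17 were higher and none lower, beside 12.6% of all genes. The median log2 fold change was 1.09, and the values ran from 0.011 (H2ac25) to 3.11 (H1f3, SE 0.79, edgeR adjusted p = 0.0504). Within CBPAA mice edgeR called none, beside 0.0274% of all genes, and DESeq2 called H4c9, beside 0.513% of all genes. At an unadjusted p under 0.05, 6 of 17 were higher and none lower, beside 7.19% of all genes. The median was 0.61, and it was 0.28 without CBPAAp53ΔIEC replicate 2 and 0.98 without CBPAAp53-floxed replicate 3. The largest values were 2.20 for H3c15 (SE 0.90) and 2.08 for H4c9 (SE 0.43).

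**Figure D3:**
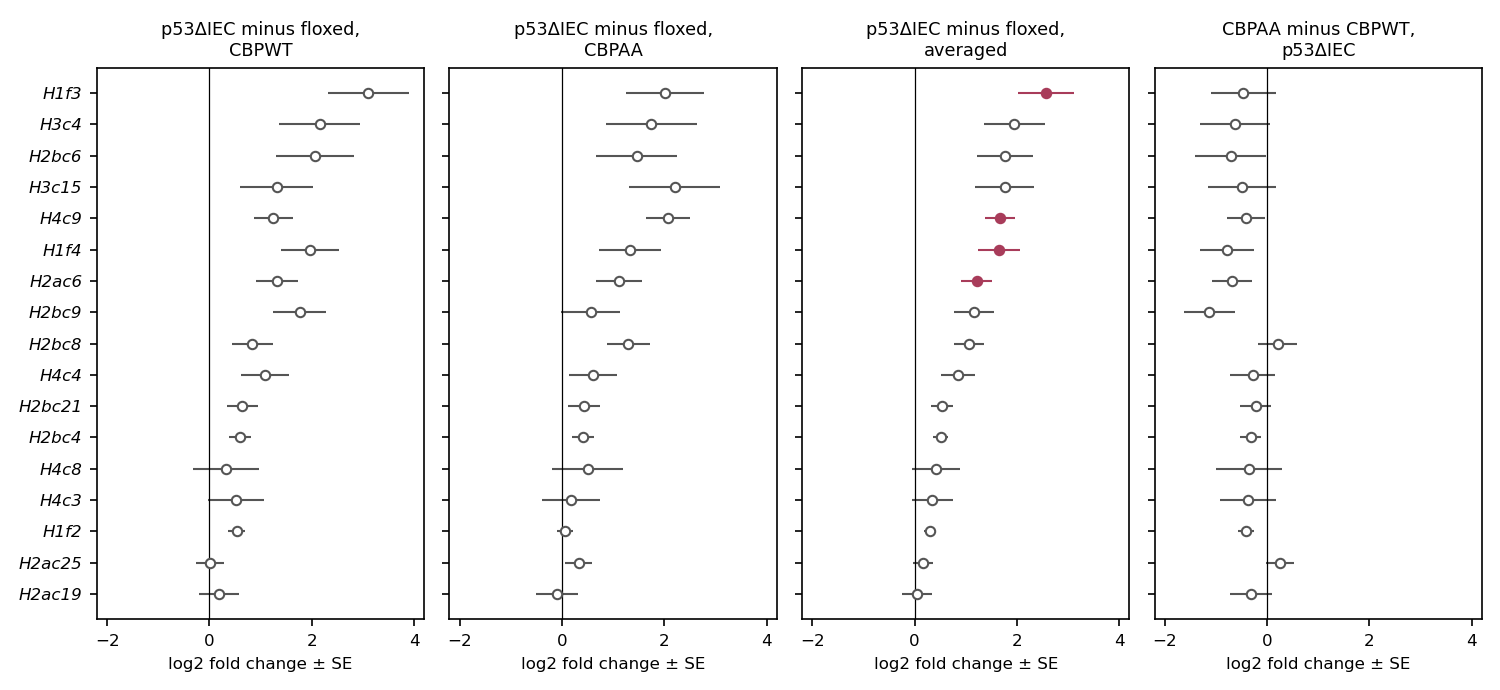
Log2 fold change with SE (bars) of the 17 tested histone genes for p53ΔIEC minus floxed in CBPWT, in CBPAA and averaged over both, and for CBPAA minus CBPWT in p53ΔIEC mice; filled points passed the cutoff. All 17 averaged values are above 0, and 4 are filled (H1f3, H1f4, H2ac6 and H4c9); in the last panel 15 of 17 values are below 0 and none is filled.

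To place the 36 untested members, the fit was repeated on the 19803 genes with a summed count of 10 or more. Averaged over CBP genotypes, 51 of 53 members had a log2 fold change above 0, with a median of 1.08, beside a median of 0.015 over all genes. At an unadjusted p under 0.05, 24 of 53 were higher and none lower, beside 11% of these genes, and 5 were called, beside 2.47%. The 5 were the 4 named above and H2bc11. By family the medians were 1.47 for H1, 1.47 for H3, 1.22 for H2B, 0.93 for H2A and 0.86 for H4, and the exceptions below 0 were H2ac21 and the pseudogene H2bc26. With a median of 33 reads per member over 12 libraries, single values of these genes carry wide errors.

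Histone RNA was then set beside the small intestine genes, library by library. The other 50 members without H1f2, H2bc4 and H2bc21 summed to 20.3, 14.9 and 12.2 reads per 1000000 in CBPWTp53-floxed, 13.3, 13.4 and 12.7 in CBPAAp53-floxed, 20.3, 45.4 and 39.5 in CBPWTp53ΔIEC and 29.8, 40.3 and 13.0 in CBPAAp53ΔIEC libraries. The lowest p53ΔIEC library of each CBP genotype was the one with most small intestine RNA, and its part in the result was not tested. The other 2 libraries over 500 TPM were not low, CBPAAp53-floxed replicate 2 having the highest sum of its group and CBPAAp53ΔIEC replicate 1 the middle one. Without these 2 libraries (CBPWTp53ΔIEC replicate 1 and CBPAAp53ΔIEC replicate 3), 11 of 17 tested members were called in the averaged comparison, beside 11.4% of all genes, all 11 of them higher. Then 9 were called in CBPWT mice, beside 9.23%, and 9 in CBPAA mice, beside 8.12%. The 2 libraries left out had the lowest histone sums of their groups, so leaving them out raises the difference by construction. These higher counts are therefore no separate support for it. The same holds for the fit without all 4 libraries, which leaves these 2 out as well. Without all 4 libraries over 500 TPM, 13 of 23 tested members were called on average (11.1% of all genes), 13 in CBPWT mice (11.4%) and 5 in CBPAA mice (6.92%), where 1 p53ΔIEC library remained and was assumed to vary like the other groups.

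The library names also set these 2 libraries apart from the other p53ΔIEC libraries. Each name ends in a number, whose meaning the labels do not give, and it was under 200 in the 6 floxed libraries, in CBPWTp53ΔIEC replicate 1 and in CBPAAp53ΔIEC replicate 3, and over 200 in the other 4 p53ΔIEC libraries. In the 8 libraries with a number under 200, with 1 p53ΔIEC library per CBP genotype assumed to vary like the floxed libraries, 15 members were tested. None was called on average (0.864% of all genes), in CBPWT mice (2.05%) or in CBPAA mice (0.0264%), and 1 had an unadjusted p under 0.05 on average. The median log2 fold change over the members was 0.29 on average, 0.51 in CBPWT and −0.23 in CBPAA mice, and that of H4c9 on average was 0.83 (edgeR adjusted p = 0.283). In these values, all from numbers under 200, loss of p53 and the small intestine RNA of the 2 remaining p53ΔIEC libraries cannot be told apart. Over all 12 libraries every number over 200 belongs to a p53ΔIEC library, so loss of p53 and the number range cannot be fully told apart.

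**Figure D4:**
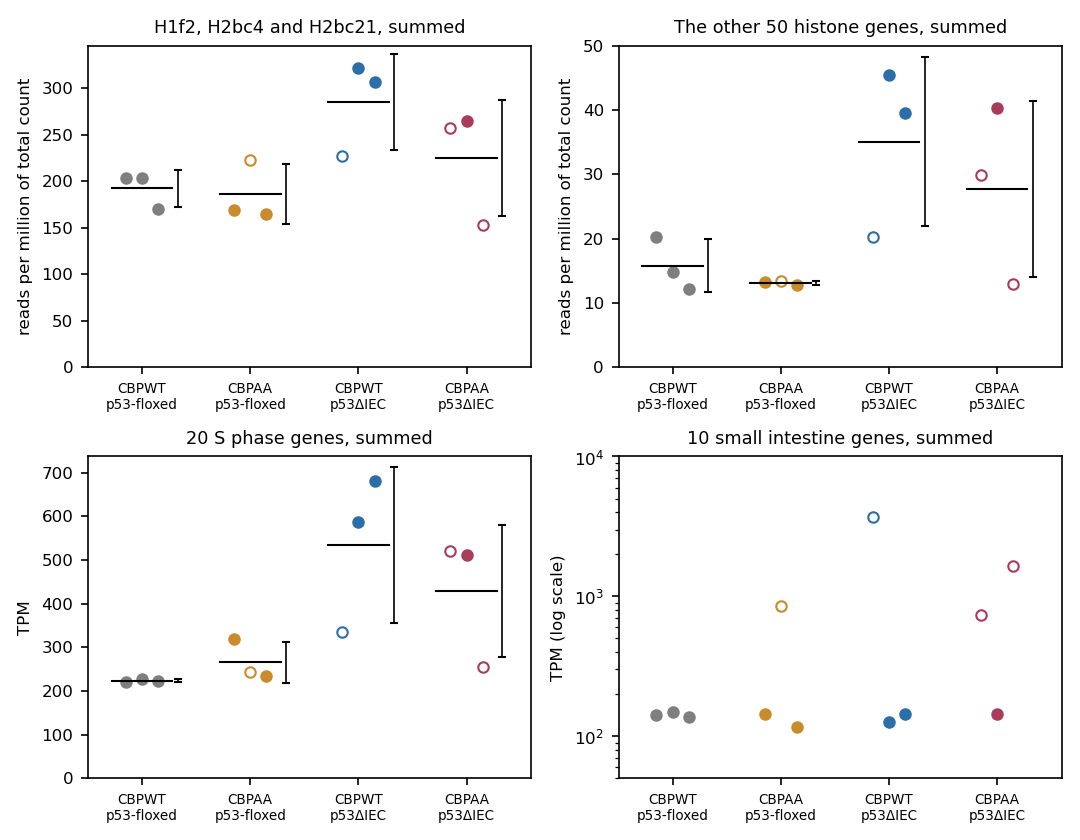
Sums per library, 3 mice a group, of H1f2, H2bc4 and H2bc21 and of the other 50 histone genes (reads per 1000000 of total count), and of 20 S phase genes and 10 small intestine genes (TPM, the last on a log scale), with the mean (line) and SD (bar) except in the last panel. Open circles are the 4 libraries with over 500 TPM of small intestine genes; those of CBPWTp53ΔIEC replicate 1 (3707 TPM) and CBPAAp53ΔIEC replicate 3 (1647 TPM) have the lowest histone and S phase sums of their groups.

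The second comparison asked whether histone RNA differed with the CBP mutation. In p53-floxed crypts none of the 17 tested members was called by edgeR or DESeq2, beside 0% of all genes by edgeR and 0.233% by DESeq2, and 1 member had an unadjusted p under 0.05, beside 8.04% of all genes. That member was H4c9, lower in CBPAA crypts without overlap of the groups (log2 fold change −1.24, SE 0.44, edgeR adjusted p = 0.618). The median over the members was −0.10, with SEs of 0.16 to 1.04. In p53ΔIEC crypts none was called by either tool, beside 0.00684% of all genes by edgeR and 0.0137% by DESeq2, and 2 had an unadjusted p under 0.05, beside 3.57%. These were H1f2 (log2 fold change −0.41, SE 0.16) and H2bc9 (−1.13, SE 0.50), both lower in CBPAA crypts and both with an edgeR adjusted p of 0.985. The median was −0.41 and 15 of 17 values were below 0. Without CBPAAp53ΔIEC replicate 3 the median was −0.13, and without CBPAAp53ΔIEC replicate 2 it was −0.83.

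Whether the p53 difference itself differed between CBPAA and CBPWT mice was tested as the interaction. None of the 17 members was called by edgeR, beside 0.00684% of all genes, or by DESeq2, beside 0.205%, and none had an unadjusted p under 0.05, beside 10.3% of all genes. The median difference was −0.28 on the log2 scale, and with each library left out it ran from −0.48 (without CBPWTp53-floxed replicate 1) to 0.035 (without CBPAAp53ΔIEC replicate 3), where its sign changed. The values ran from −1.20 (H2bc9, SE 0.80) to 0.88 (H3c15, SE 1.17), and SEs of 0.23 to 1.30 leave differences of this size undetectable for most members.

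The genes that make and process histone mRNA were described next, from a list of 21. Of 20 tested, 1 was called in the averaged comparison, beside 3.5% of all genes tested. It was the cyclin E gene Ccne1, with a log2 fold change of 1.31 (SE 0.22, edgeR adjusted p = 0.0117). Ccne2, the other cyclin E gene on the list, is not described here. At an unadjusted p under 0.05, 8 of 20 were higher and none lower, beside 13.2% of all genes tested that were higher. Slbp, whose product binds the stem-loop, had 0.40 (SE 0.11, edgeR adjusted p = 0.0489) and Cdk2, the kinase partner of cyclin E, 0.43 (SE 0.11, edgeR adjusted p = 0.0452), both under the fold cutoff. Npat, the coactivator of histone transcription, had 0.17 (SE 0.14), and the U7 snRNP genes Lsm10 and Lsm11 had 0.12 (SE 0.14) and 0.055 (SE 0.15), none of which passed (edgeR adjusted p = 0.529, 0.662 and 0.868). The median over the 20 was 0.12.

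Histone variants listed as replication-independent were tested in all 11 cases. Most are made from polyadenylated mRNA outside S phase as well, but Cenpa mRNA is cell-cycle regulated and H2ax also makes a stem-loop mRNA in S phase. The called genes were 4, all higher in p53ΔIEC crypts, beside 3.5% of all genes tested. They were the centromeric H3 gene Cenpa (log2 fold change 1.54, SE 0.31, edgeR adjusted p = 0.0227), the DNA damage-associated H2A gene H2ax (1.06, SE 0.18, edgeR adjusted p = 0.0117), the linker gene H1f0 (0.52, SE 0.11, edgeR adjusted p = 0.0175) and H2az1 (0.51, SE 0.10, edgeR adjusted p = 0.0159). The H3.3 genes H3f3a and H3f3b, at 139 and 614 TPM on average, had log2 fold changes of −0.0042 and −0.0089 (SE 0.11 and 0.10, edgeR adjusted p = 0.986 and 0.970). Of 22 histone chaperone genes tested, 5 were called, beside 3.5% of all genes tested, all 5 higher, with a median of 0.26.

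Of 20 S phase genes such as Mcm2 and Pcna, 19 were called in the averaged comparison, all higher, with a median log2 fold change of 1.11. The median over the 17 tested histone members was 1.07. In CBPWT mice the medians were 1.46 for the S phase genes and 1.09 for the histone members, and in CBPAA mice 0.65 and 0.61. For CBPAA against CBPWT in p53-floxed crypts they were on opposite sides of 0, at 0.40 for the S phase genes (19 of 20 above 0, none called) and −0.10 for the histone members. In p53ΔIEC crypts they were −0.31 and −0.41, and for the interaction −0.63 and −0.28. The S phase genes summed to 220.5 to 227 TPM in CBPWTp53-floxed, 234 to 319 TPM in CBPAAp53-floxed, 334 to 680 TPM in CBPWTp53ΔIEC and 255 to 521 TPM in CBPAAp53ΔIEC libraries. For each 100 reads of the S phase genes, the other 50 histone members had 6.14, 4.44 and 3.74 reads in CBPWTp53-floxed, 2.82, 3.50 and 3.32 in CBPAAp53-floxed, 3.65, 4.97 and 3.92 in CBPWTp53ΔIEC and 3.68, 4.98 and 3.39 in CBPAAp53ΔIEC libraries. The p53-floxed and p53ΔIEC ranges of this ratio overlapped. For H1f2, H2bc4 and H2bc21 together the ratio was 35.9 to 61.5 in the floxed and 30.5 to 40.8 in the p53ΔIEC libraries, and these ranges overlapped through CBPAAp53-floxed replicate 1.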

How the data were processed

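RNA of crypts from 12 mice was sequenced. Per the labels' processing notes, which give no order or roles, the authors used fastp 0.20.0, FastQC 0.11.9, HISAT2 2.1.0, SAMtools 1.9 and featureCounts of Subread 2.0.1 with GRCm38. The strand and multiple-mapping options are not given in the sources used here. The deposited table holds raw read counts and TPM per gene and library, and the authors' own fold changes and p-values, which were not used. The members, gene lists and tests were chosen with earlier results of these data known.

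The count test was the quasi-likelihood test of edgeR 4.0.16 in R 4.3.3, run robustly on all 12 libraries as 1 factor of 4 groups after TMM scaling and a filterByExpr minimum of 10 counts, with Benjamini-Hochberg adjustment over all genes, and DESeq2 1.42.0 was an alternative. The scripts were tested on simulated data. An SE is the log2 fold change over the root of its F statistic. Libraries held 11177430 to 18029125 counts, and low counts limit the precision. Members were named with values when they were among the 12 highest in mean TPM, were called in any comparison, or had 1 of the 3 largest or 3 smallest averaged p53 differences. Others named were chosen after their values were seen. Fits without the 2 or 4 libraries highest in small intestine genes, of the 8 libraries with a number under 200 in the name, and with a summed count of 10 or more, were added after the data were seen.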

Additional observations from a re-analysis of the deposited data

How the results depend on the processing

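The averaged p53 comparison had 4 members called. This count was 0 with at least 10 counts in every library, which kept only H1f2, H2bc4, H2bc21 and H2ac25, 1 with the replicate number as a block, 6 by DESeq2, 13 without the 4 and 11 without the 2 libraries highest in small intestine genes, and 1 to 11 with each library left out, the highest without CBPAAp53ΔIEC replicate 3, followed by 8 without CBPWTp53ΔIEC replicate 1. H4c9 was called in all settings that tested it (log2 fold change 1.43 to 2.15) but 1, that of the 8 libraries with a number under 200 in their names (0.83). In the averaged comparison 3.5% of all genes were called, 3.55% with at least 10 counts in every library and 2.08% with the replicate block. The share was 5.27% by DESeq2, 11.4% without the 2 libraries and 0.705% to 7.18% with each library left out. The 2 libraries had the lowest histone sums of their groups, so the higher counts of members without them were partly set by the choice. The members' median log2 fold change of 1.07 was 0.40 with at least 10 counts in every library and 0.94 to 1.21 with each library left out. In CBPWT mice the count of 0 became 4 by DESeq2 (5.93% of all genes), 1 with DESeq2 size factors in edgeR (3.2%) and 9 without the 2 libraries (9.23%). It was 7 on the groups compared only and 0 to 7 with each library left out. The shares of all genes in these fits are not given here, so these counts do not show a change particular to the members. The median of 1.09 was 0.57 with at least 10 counts in every library. In CBPAA mice the count of 0 became 1 by DESeq2 (0.513% of all genes), 1 without a filter (0.0405%) and 9 without the 2 libraries (8.12%). It was 0 to 3 with each library left out, where the share of all genes is not given here. The median of 0.61 was 1.27 without the 4 libraries. The median of −0.41 for CBPAA against CBPWT in p53ΔIEC mice ran from −0.83 to −0.13 with each library left out. H2ac19 turned from 0.049 to −0.11 without the 2 libraries and lay between −0.067 and 0.28 with each library left out, below 0 in 5 of these fits. The interaction median of −0.28 ran from −0.48 to 0.035, and the CBPAA median from 0.28 (without CBPAAp53ΔIEC replicate 2) to 0.98, with each library left out. In the 8 libraries with a number under 200, 0 members were called on average, the medians were 0.29 on average, 0.51 in CBPWT, −0.23 in CBPAA, −0.81 for CBPAA against CBPWT in p53ΔIEC mice and −0.68 for the interaction, and H2bc21 (−0.17), H4c8 (−0.25) and H2bc6 (−0.93) fell below 0. The cause of these changes was not tested, apart from the number of members kept by the stricter filter. The counts of 0 for the CBP comparisons and the interaction held in every setting. As a share of the members' reads, H1 had 56.4%, H2B 37.8%, H2A 2.65%, H4 2.55% and H3 0.659% on average, and as a share of TPM 49.1%, 41.5%, 3.03%, 5.29% and 1.12%. Same-numbered libraries did not deviate together (correlations of −0.57 to 0.60), so the numbers were not taken as pairs. The replicate block changed the members called in no other comparison. In CBPWT mice it lowered the share of all genes called from 3.15% to 0.219% and the S phase genes called from 17 to 3. Most members had too few reads for a test.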
